A study of Homo sapiens with 24 samples.

Results

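The genes described here are 57 protein-coding genes of the short arm of human chromosome 5, out of 58138 gene names in the count tables. They were chosen by their counts in a cell line labelled RPRD1B_FL, where they read lower as a block than in its parent line, so that difference describes the choice and was not tested. Of the 57, 47 passed the filter on low counts in the Flp-In T-REx 293 libraries, 48 passed it in HEK293T (the additional gene is TERT), and 9 passed it in neither. Each of the 47 reached the level that 10 counts make at the median library size, 3.72 CPM (counts scaled to a library of 1000000 counts in genes), in at least 2 parent libraries and also in at least 2 RPRD1B_FL line libraries. A mean of 10 CPM or more over the 8 Flp-In libraries was reached by 40 of them.

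The series asked how RPRD1A, RPRD1B and RPRD2, proteins that bind the tail of RNA polymerase II, affect the amount of RNA in cells. HEK293T, a human embryonic kidney line, received siRNA in 8 groups of 2 samples: a control (CTRL), 3 groups against single genes (RPRD1A_KD, RPRD1B_KD, RPRD2_KD), 3 with paired names (RPRD1B_RPRD2_KD, RPRD1A_RPRD2_KD, RPRD1A_RPRD1A_KD) and 1 against all 3 genes (RPRD1A_RPRD1B_RPRD2_KD). The label RPRD1A_RPRD1A_KD names RPRD1A in both positions and is kept as written, although RPRD1B was also low in those libraries, at 10.8 CPM against 27.6 in CTRL and 24.7 in RPRD1A_KD (means of 2 libraries). Flp-In T-REx 293, a related kidney line with an integration site for a gene switched on by tetracycline, formed 4 groups of 2: the parent without (FLP) and with 48 h of tetracycline (FLP_TET), and the RPRD1B_FL line without (RPRD1B_FL) and with it (RPRD1B_FL_TET). All HEK293T cells were transfected and no Flp-In cells are labelled so, and therefore cell line, siRNA transfection and library set cannot be told apart between them. The labels do not explain FL, and whether the RPRD1B_FL line is a single clone is not stated in the sources used here.

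Lines descended from 293 cells carry an abnormal number of chromosomes, and gains and losses of chromosome segments differ between sublines and between clones of one subline. A segment present in fewer copies commonly gives less RNA from most of its genes, while single genes can depart from their neighbours through their own regulation. The members share a chromosome arm and not a pathway: subunits of the CCT chaperonin, Mediator and succinate dehydrogenase stand beside enzymes of RNA processing, checkpoint proteins and mitochondrial enzymes. DNA was not analysed here, and in bulk RNA fewer cells expressing a gene and less of its RNA per cell cannot be told apart.

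Libraries held 1817246 to 3531106 counts in genes, where 3 counts make 0.85 to 1.65 CPM. Reads are 3′ ends of polyadenylated RNA. RPRD1B stood at 35.7 ± 0.61 CPM (SD, n = 2) in FLP, 45.1 ± 0.33 in RPRD1B_FL, 30.6 ± 0.30 in FLP_TET and 78.2 ± 16 in RPRD1B_FL_TET. Of the listed markers of 293-type cells, IGF2BP1 lay between 242 and 458 CPM in all libraries and LIN28B between 35.3 and 95.8. NEFL was at 1.01 to 6.53 CPM in HEK293T and 83.4 to 154 CPM in Flp-In. VIM, KRT8 and KRT18 were also higher in Flp-In, and PAX2 overlapped. NEFM ran the other way, at 4.58 to 20.4 CPM in HEK293T and 0.762 to 3.8 in Flp-In. The listed blood, hepatocyte and squamous markers reached at most 0.86 CPM (KRT17), with PTPRC at most 0.38. The fibroblast marker COL1A1 was at 3.69 to 14.1 CPM in HEK293T and 1.14 to 5.32 in Flp-In, while COL1A2 and DCN had no counts. The second RPRD1A_RPRD2_KD library stood apart from the other HEK293T libraries in how its deviations followed transcript GC content (r = 0.34 across genes). In the Flp-In libraries that correlation ran from -0.52 to 0.57, a description across genes, which are not independent.

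Promoters were matched by symbol in a RefSeq table on GRCh38.p14 for 50 of the 57 members. Within the 250 bases before the start, TATAAA (or TTTATA on the other strand) was in 0 of the 50, against 11.1% of 27305 promoters searched in the same way. The letters CCAAT (or ATTGG) were in 14 of 50 (28.0%, against 33.0%), and GGGCGG (or CCGCCC), the GC box, in 37 of 50 (74.0%, against 42.3%). The promoters searched for comparison were not limited to protein-coding or expressed genes, whereas the members are all protein-coding, so these shares do not compare like genes. These are letter matches and not binding sites. The stretches printed here are the parts of 3 such windows that lie in no annotated exon, shown because they stand before a gene at the low end of the arm (MED10), before the best expressed gene that kept its level (GOLPH3), and between a pair that is read in opposite directions with similar ratios (DROSHA and C5orf22). They are read 5′ to 3′ on the strand of the named gene, and capitals mark GC boxes or CCAAT on either strand.
MED10, chr5:6378595-6378797, minus strand, GRCh38.p14: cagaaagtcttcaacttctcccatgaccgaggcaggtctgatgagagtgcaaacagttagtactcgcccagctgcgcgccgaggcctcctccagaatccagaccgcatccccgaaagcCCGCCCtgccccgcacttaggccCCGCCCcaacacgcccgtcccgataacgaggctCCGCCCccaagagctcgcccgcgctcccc
GOLPH3, chr5:32174351-32174470, minus strand, GRCh38.p14: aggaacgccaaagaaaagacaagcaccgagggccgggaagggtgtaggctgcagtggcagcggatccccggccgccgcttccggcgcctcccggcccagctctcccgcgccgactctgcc
C5orf22 (shared with DROSHA), chr5:31532197-31532265, plus strand, GRCh38.p14: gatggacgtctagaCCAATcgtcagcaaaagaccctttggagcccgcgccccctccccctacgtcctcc
The MED10 stretch holds 3 GC boxes, and the GOLPH3 stretch holds none of the 3 motifs. The stretch printed for DROSHA and C5orf22, which covers 69 of the 207 bases between their starts, holds 1 CCAAT.

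Along the arm the members of the middle stretch were lowest in the RPRD1B_FL line relative to the parent, and those toward both ends of the arm were lower by less. The median log2 ratio of group means over the 47 members was -0.51 without tetracycline and -0.45 with it, against 0.00 and 0.02 over the 11948 genes tested in the Flp-In lines. All 47 were below 0 without tetracycline and 44 with it. At an adjusted p under 0.05 in edgeR's quasi-likelihood test, 12 members were called lower without tetracycline, where 0.954% of all genes were (1.16% in either direction), and 8 with it, where 0.829% were (1.05%). These counts restate the choice of members.

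Cutting the order at the 2 widest distances between neighbouring tested members, 4.85 Mb from LPCAT1 to MED10 and 14.12 Mb from BASP1 to DROSHA, gives 11 distal members near the chromosome end, 12 middle members and 24 proximal members toward the centromere. This division was made after the values were seen. Distal members had a median log2 ratio of -0.28 without and -0.37 with tetracycline, middle members -1.09 and -0.95, and proximal members -0.49 and -0.40. Expressed as the median of the mean of both states, the RPRD1B_FL line held 76.3% of the parent's level in the distal group, 48.7% in the middle group and 72.7% in the proximal group.

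The middle group is where nearly all libraries separated. All 4 RPRD1B_FL line libraries were below all 4 parent libraries for 23 of 47 members, against 4.85% of all genes tested (4.03% of all genes had the reverse order). By position these were 3 of 11 distal members (CCDC127, PDCD6 and BRD9), 11 of 12 middle members (all but MTRR) and 9 of 24 proximal members (DROSHA, MTMR12, SUB1, BRIX1, SKP2, NUP155, TTC33, OXCT1 and NNT).

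**Figure D1:**
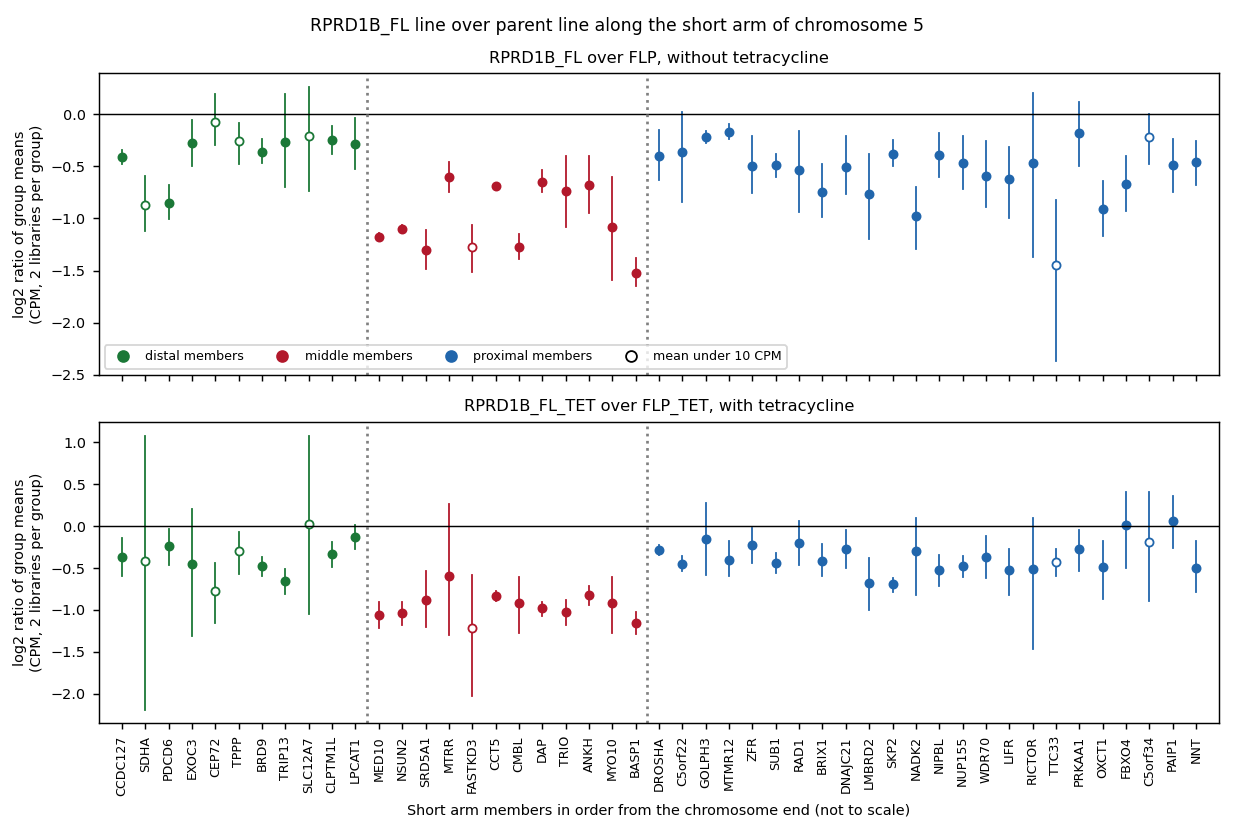
Log2 ratio of group mean CPM, RPRD1B_FL line over parent, for 47 short arm members in order from the chromosome end, without (upper panel) and with tetracycline (lower panel). Points are ratios of means of 2 libraries, bars run from the lowest to the highest of the 4 library pairs, open points have a mean under 10 CPM, and dotted lines part the distal, middle and proximal members. The middle members lie lowest in both panels, with medians of -1.09 and -0.95.

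The transcripts of the 3 groups differ in base composition, with median GC content of 54.2% in the distal, 46.2% in the middle and 39.5% in the proximal members. After a GC correction added on seeing the data, the medians without and with tetracycline were -0.38 and -0.39 (distal), -1.06 and -0.98 (middle), and -0.37 and -0.40 (proximal). The middle group thus kept its distance from the other groups, while the distal and proximal groups could not be ordered.

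CCDC127 is the first expressed member from the chromosome end and encodes a coiled-coil protein. It measured 51.3 and 49.3 CPM in FLP, 36.8 and 38.8 in RPRD1B_FL, 51.4 and 45.9 in FLP_TET, and 41.5 and 33.8 in RPRD1B_FL_TET. The lines did not overlap in either state, and its log2 ratios were -0.41 and -0.37.

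PDCD6, a calcium-binding protein of membrane repair and vesicle transport, measured 70.3 and 60.2 CPM in FLP and 35.0 and 37.7 in RPRD1B_FL, then 49.6 and 43.9 in FLP_TET and 43.0 and 36.0 in RPRD1B_FL_TET. Its log2 ratio was -0.85 without tetracycline and -0.24 with it, the parent level being the one that differed more between the states.

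SDHA, the flavoprotein subunit of succinate dehydrogenase, was counted at only 2.22 to 10.3 CPM in the 8 Flp-In libraries, and the lines overlapped with tetracycline. The genome holds near-identical copies of SDHA, so its low count is uncertain. EXOC3, a subunit of the exocyst that tethers secretory vesicles, measured 27.0 and 22.4 CPM in FLP, 21.5 and 19 in RPRD1B_FL, 37.6 and 29.1 in FLP_TET, and 33.5 and 15.1 in RPRD1B_FL_TET. One tetracycline-treated RPRD1B_FL library of EXOC3 lay within the parent's range and the other far under it.

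BRD9, the bromodomain subunit of the non-canonical BAF chromatin remodeller, measured 74.9 and 65.6 CPM in FLP, 55.8 and 54.0 in RPRD1B_FL, 73.6 and 69.7 in FLP_TET, and 48.7 and 53.8 in RPRD1B_FL_TET. The lines were apart in both states, with ratios of -0.36 and -0.48. TRIP13, an ATPase of the spindle checkpoint, CLPTM1L, a membrane protein of the endoplasmic reticulum, and LPCAT1, a phospholipid-remodelling enzyme, had mean log2 ratios of -0.46, -0.29 and -0.21. In each of the 3, libraries of the lines overlapped once both states were pooled.

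CEP72, TPPP and SLC12A7 were under 10 CPM, and CEP72 and TPPP overlap each other on the genome, so the strand used in counting, which is not given in the sources used here, could shift reads between them. TERT, the catalytic subunit of telomerase, lay at 0.573 to 2.19 CPM in the Flp-In libraries, around the level of 3 counts, and no ratio is given for it.

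In the middle group MED10, a subunit of the Mediator complex that links transcription factors to RNA polymerase II, measured 197 and 188 CPM in FLP, 84.6 and 85.6 in RPRD1B_FL, 148 and 157 in FLP_TET, and 67.4 and 78.3 in RPRD1B_FL_TET. No RPRD1B_FL library of MED10 came near a parent library, and the log2 ratios were -1.18 and -1.06. NSUN2, an RNA cytosine methyltransferase, measured 728 and 737 CPM in FLP against 334 and 349 in RPRD1B_FL, and 757 and 741 in FLP_TET against 334 and 395 in RPRD1B_FL_TET. The replicates of NSUN2 lay close together and the lines far apart, at -1.10 and -1.04.

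SRD5A1, a steroid 5-alpha reductase, measured 20.5 and 17.2 CPM in FLP, 7.29 and 7.99 in RPRD1B_FL, 18.2 and 24.4 in FLP_TET, and 10.7 and 12.5 in RPRD1B_FL_TET. Its ratios were -1.30 and -0.88, and the lines did not overlap. CMBL, a hydrolase that activates ester prodrugs, measured 29.7 and 27.8 CPM in FLP, 11.3 and 12.6 in RPRD1B_FL, 29.3 and 26.1 in FLP_TET, and 17.1 and 12 in RPRD1B_FL_TET. For CMBL too no RPRD1B_FL library reached a parent library, at -1.27 and -0.92.

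MTRR, which reactivates methionine synthase, and FASTKD3, a mitochondrial RNA-binding protein, lie head to head and overlap. MTRR had the smallest change of the middle group, -0.60 in both states, and 1 parent library with tetracycline (9.25 CPM) lay under 3 of the 4 RPRD1B_FL libraries. FASTKD3, at a mean of 9.40 CPM, had ratios of -1.27 and -1.21. Without strand, reads within the overlap of this pair may be mixed. The annotated 3′ end of MTRR (7906025) lies outside the overlap, past FASTKD3 (7859159 to 7869037).

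CCT5, a subunit of the cytosolic chaperonin that folds actin and tubulin, measured 1010 and 1010 CPM in FLP, 624 and 631 in RPRD1B_FL, 1220 and 1140 in FLP_TET, and 673 and 659 in RPRD1B_FL_TET. Its replicates were tight and its ratios, -0.69 and -0.83, were smaller in size than those of MED10 and NSUN2. DAP, a regulator of autophagy, TRIO, ANKH, a pyrophosphate exporter, and MYO10, an unconventional myosin of filopodia, had mean log2 ratios of -0.81, -0.89, -0.75 and -1.0, and the lines did not overlap for any of these 4.

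BASP1, a membrane-bound protein of growing neurites that also acts as a transcriptional corepressor, was the lowest member of the arm. It measured 237 and 206 CPM in FLP, 78.7 and 75.7 in RPRD1B_FL, 194 and 194 in FLP_TET, and 94.8 and 79.6 in RPRD1B_FL_TET. Its log2 ratios were -1.52 and -1.15. BASP1 lies at chr5:17065598-17276843 and is the last middle member. The next tested member, DROSHA, lies after the widest distance on the arm without one.

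The proximal group began with DROSHA, the nuclease that releases microRNA precursors, at 158 and 119 CPM in FLP, 108 and 102 in RPRD1B_FL, 118 and 118 in FLP_TET, and 93.3 and 101 in RPRD1B_FL_TET. The lines of DROSHA did not overlap although the difference was small, -0.40 and -0.28. C5orf22, which starts 207 bases away in the other direction, had ratios of -0.36 and -0.45, with 1 RPRD1B_FL library (77.6 CPM) inside the parent's range. Of the other pairs with starts within 250 bases, RAD1 and BRIX1 had mean log2 ratios of -0.37 and -0.58, LMBRD2 and SKP2 -0.73 and -0.54, and CCDC127 and SDHA -0.39 and -0.64. The annotated RAD1 and BRIX1 genes overlap in their first parts, so reads there may be mixed, while their annotated 3′ ends lie outside the overlap.

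Among members of complexes, RAD1, a clamp of the DNA damage checkpoint, measured 83.3 and 68.5 CPM in FLP, 43.4 and 61.3 in RPRD1B_FL, 70.2 and 59.1 in FLP_TET, and 51.0 and 61.4 in RPRD1B_FL_TET. With tetracycline the lines of RAD1 overlapped. SKP2, which selects substrates of a ubiquitin ligase that drives cell division, measured 97.0 and 110 CPM in FLP, 81.6 and 77.6 in RPRD1B_FL, 108 and 110 in FLP_TET, and 64.4 and 70.7 in RPRD1B_FL_TET, and its lines did not overlap.

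NIPBL, the loader of cohesin, measured 133 and 118 CPM in FLP, 88.2 and 104 in RPRD1B_FL, 117 and 102 in FLP_TET, and 71.6 and 80.5 in RPRD1B_FL_TET. Within each state its lines were apart, while 1 untreated RPRD1B_FL library exceeded a treated parent library. NUP155, a nucleoporin of the inner ring of the nuclear pore, measured 85.9 and 67.4 CPM in FLP, 58.3 and 52.1 in RPRD1B_FL, 83.5 and 74.0 in FLP_TET, and 57.9 and 54.7 in RPRD1B_FL_TET, with ratios of -0.47 and -0.48. ZFR, an RNA-binding zinc finger protein, measured 128 and 94.0 CPM in FLP, 75.8 and 81.1 in RPRD1B_FL, 78.5 and 68.3 in FLP_TET, and 57.9 and 67.6 in RPRD1B_FL_TET. The libraries of ZFR separated within each state, and FLP_TET lay as low as RPRD1B_FL.

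Of the kinase regulators, RICTOR, the defining subunit of mTOR complex 2, measured 19.8 and 15.2 CPM in FLP, 7.65 and 17.5 in RPRD1B_FL, 15.7 and 14.5 in FLP_TET, and 5.71 and 15.6 in RPRD1B_FL_TET. The number 1 libraries of the RPRD1B_FL line were low and the number 2 libraries at the parent's level. PRKAA1, a catalytic subunit of AMP-activated kinase, measured 23.2 and 26.4 CPM in FLP, 18.6 and 25.1 in RPRD1B_FL, 21.6 and 21.1 in FLP_TET, and 14.9 and 20.5 in RPRD1B_FL_TET, and the lines overlapped without tetracycline.

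Of the mitochondrial enzymes of the proximal group, OXCT1 and NADK2 were lower than its median and NNT was near it. OXCT1, which lets cells use ketone bodies, measured 93.1 and 74.8 CPM in FLP, 48.1 and 41.5 in RPRD1B_FL, 57 and 55.5 in FLP_TET, and 31.2 and 48.9 in RPRD1B_FL_TET, at ratios of -0.91 and -0.49. NADK2, the mitochondrial NAD kinase, measured 65.8 and 58.2 CPM in FLP, 27.0 and 35.8 in RPRD1B_FL, 41.6 and 44.9 in FLP_TET, and 25.5 and 44.5 in RPRD1B_FL_TET. The lines of NADK2 separated without tetracycline (-0.98) and overlapped with it (-0.30). NNT, which makes mitochondrial NADPH and is the last expressed member before the centromere, measured 50.9 and 49.6 CPM in FLP, 31.7 and 41.5 in RPRD1B_FL, 59.7 and 42.9 in FLP_TET, and 34.7 and 37.8 in RPRD1B_FL_TET. No RPRD1B_FL library of NNT reached a parent library.

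The proximal members of 10 CPM or more ran from -0.73 (LMBRD2) to -0.19 (GOLPH3) in mean log2 ratio. SUB1, a transcriptional coactivator that binds single-stranded DNA, and BRIX1, a ribosome biogenesis factor, had all RPRD1B_FL line libraries under all parent libraries, at -0.46 and -0.58. DNAJC21, a ribosome maturation co-chaperone, WDR70, a WD-repeat protein, and LIFR, the receptor of leukemia inhibitory factor, had values of -0.39, -0.48 and -0.57, and overlapped once both states were pooled. TTC33, at a mean of 8.08 CPM, was the lowest of the group at -0.94 and had a single library at 2.55 CPM.

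A member was counted as keeping its level when the mean of its 2 log2 ratios was above -0.20. GOLPH3, which holds glycosyltransferases in the Golgi, did so at -0.19, with 108 and 112 CPM in FLP, 96.2 and 92.1 in RPRD1B_FL, 74.2 and 100 in FLP_TET, and 67.0 and 90.3 in RPRD1B_FL_TET. Without tetracycline both RPRD1B_FL libraries of GOLPH3 were still under both parent libraries. SLC12A7, a potassium-chloride cotransporter at a mean of 5.17 CPM, had -0.10, and its libraries, between 3.43 and 7.62 CPM, overlapped in both states. Just under the threshold were LPCAT1, C5orf34 and PAIP1, a translation factor, each at -0.21, and PRKAA1 at -0.23.

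The threshold was not sharp. With a GC correction C5orf34, PAIP1 and PRKAA1 also kept their level, and with total counts as the only scaling GOLPH3 did not. Every one of the 47 had a mean log2 ratio below 0 under each of the 4 scalings tried. With tetracycline alone, 3 members were at or above 0: PAIP1 (0.06), SLC12A7 (0.02) and FBXO4 (0.01), a subunit of a ubiquitin ligase.

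The other short arm genes, which the list of members did not name, followed the same positions. Of 43 such genes tested, 42 had a mean log2 ratio below 0, where 48.2% of all genes did. Their median was -0.33 for the 9 genes before the end of the distal members, -1.12 for the 5 between the distal and middle members, -0.96 for the 9 among the middle members and -0.46 for the 20 from the proximal members on. Between LPCAT1 and MED10, where no member was tested, MRPL36, a mitochondrial ribosomal protein, had -1.24, NDUFS6, a subunit of respiratory complex I, -1.12, and ICE1, a transcription elongation factor, -1.35. These 3 genes were named after their values were seen, and MRPL36 is a near neighbour of LPCAT1, which had -0.21. Genes far below the median of their stretch included NKD2 (-1.12, at a mean of 12.8 CPM in Flp-In) near the distal members. Among the proximal ones HMGCS1 had -0.99 at 303 CPM. Lower values also came from genes of few counts, AC026740.1 (-1.60, 2.24 CPM), PLEKHG4B (-0.85, 3.91 CPM) and OSMR (-1.16, 3.41 CPM). Their ratios changed widely between the untreated and treated states, from -2.57 to -0.62, -0.54 to -1.15 and -1.69 to -0.62 in that order. ANKRD33B, among the middle members, had -1.68 at 4.38 CPM. LINC02226, in the same stretch, had a mean of 6.01 CPM over the parent libraries and 0 over the RPRD1B_FL line libraries, and so no finite ratio. Such low counts make these departures weak.

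The difference did not end at the centromere. The 57 long arm genes tested before 70 Mb had a median mean log2 ratio of -0.52, close to the -0.46 of the proximal members, and the 404 from 70 Mb on had -0.04. Bins of 10 Mb were made of genes of 10 CPM or more only, members and others, and the first bin pools distal with middle members. By bin, the medians without tetracycline were -0.85 and -0.84 in the first bins of the short arm, -0.48 and -0.53 from 30 to 50 Mb, -0.66 and -0.53 from 50 to 70 Mb, and -0.13 from 70 to 80 Mb. With tetracycline they were -0.65 and -0.92, -0.34 and -0.45, -0.44 and -0.25, and 0.04. The 70 Mb border was set after these values were seen and lies past the last low genes: of the long arm genes of 10 CPM or more, MAST4 at 66.6 Mb had a mean log2 ratio of -1.10 and the next, PIK3R1 at 68.22 Mb, had 0.07.

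**Figure D2:**
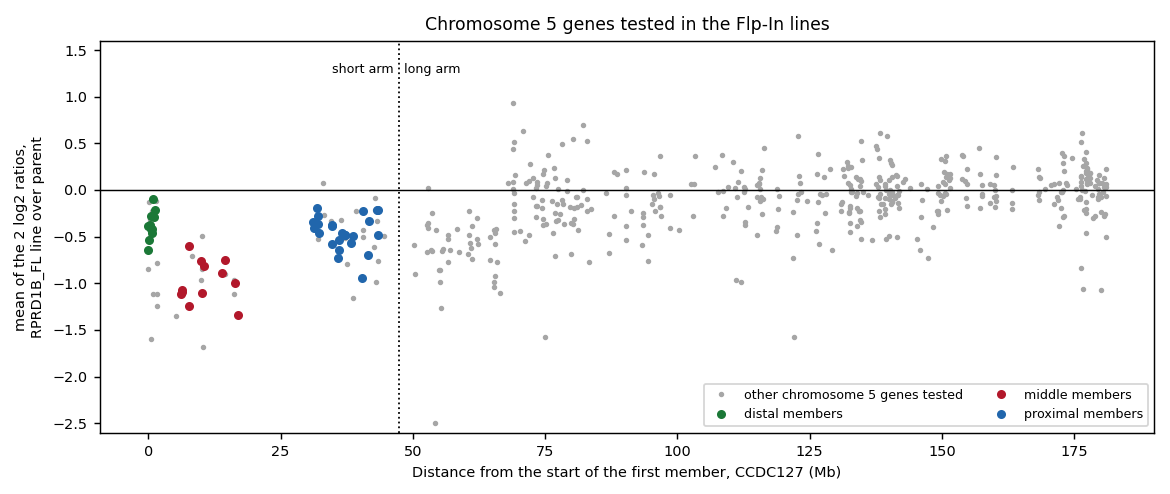
Mean of the log2 ratios without and with tetracycline, RPRD1B_FL line over parent, by distance in Mb from the start of CCDC127. Shown are the 549 chromosome 5 genes tested in the Flp-In lines that had a finite ratio. Coloured points are members and grey points other genes, 1 of which is drawn at the lower axis limit of -2.5. The middle members lie near -1, the proximal members and the first long arm genes near -0.5, and genes farther along the long arm around 0.

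In the HEK293T control group most members read nearer to RPRD1B_FL than to FLP, a comparison that shares both of these groups with the choice of members. The median log2 ratio of CTRL over FLP was -0.72 for the 47 members tested in both cell lines and 0.03 for the 11107 genes tested in both. The ratio of CTRL over RPRD1B_FL was -0.09 for the members and 0.03 for all genes, and the members' value was -0.18 without the first RPRD1B_FL library and 0.01 without the second. CTRL was below FLP in 42 members (89.4%, against 48.5% of all genes), below RPRD1B_FL in 28 (59.6%, against 48.1%), and nearer to RPRD1B_FL than to FLP in 36 (76.6%, against 51.9%). CTRL was nearer to RPRD1B_FL in 66.7% of 30 other short arm genes, where the median of CTRL over FLP was -0.79. The share was 50.9% of 55 long arm genes before 70 Mb (-0.16) and 55.1% of 98 chromosome 21 genes (-0.46), 2 lists that were also lower in the RPRD1B_FL line. These values are descriptions, with the cell line, transfection and library set all differing. Members chosen for a high FLP level can read nearer to RPRD1B_FL through that choice, and this was not tested.

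All 16 HEK293T libraries were below all 4 parent Flp-In libraries in 19 of 47 members, against 13.1% of all genes. By position this held for 2 of 11 distal, 8 of 12 middle and 9 of 24 proximal members. Over the members of 10 CPM or more, the median log2 level relative to the mean of the parent libraries lay between -1.32 and -0.90 in the HEK293T libraries for the middle group, and between -1.01 and -0.91 in the 4 RPRD1B_FL line libraries. For the distal group the ranges were -0.57 to -0.05 and -0.55 to -0.25, and for the proximal group -0.79 to -0.49 and -0.64 to -0.28.

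**Figure D3:**
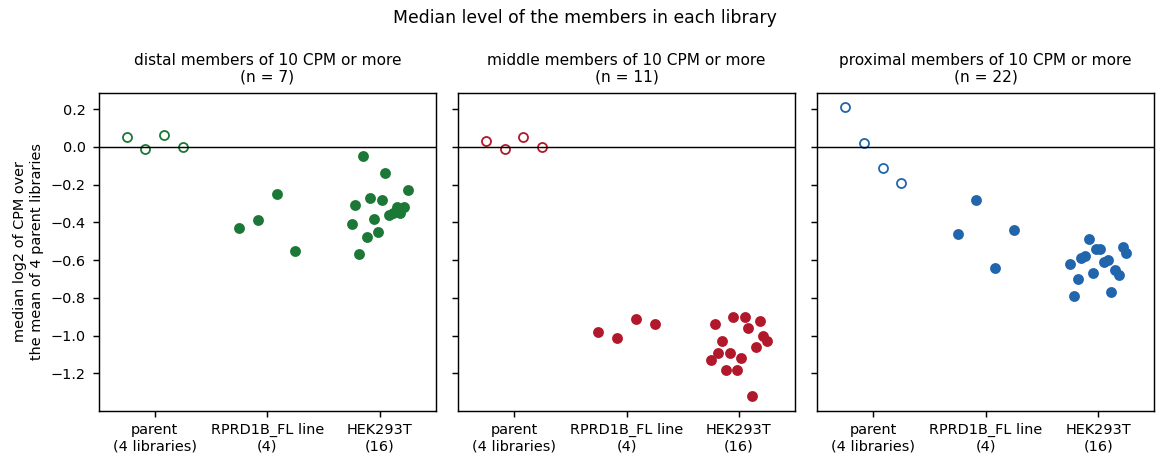
Median, over the distal, middle and proximal members of 10 CPM or more, of the log2 of CPM over the mean of the 4 parent libraries, with 1 point per library. In the middle panel the 4 parent libraries lie at -0.01 to 0.05, the 4 RPRD1B_FL line libraries at -1.01 to -0.91 and the 16 HEK293T libraries at -1.32 to -0.90.

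Single members departed from this likeness in both directions. BASP1 was the most extreme, at 7.46 to 20.8 CPM over the 16 HEK293T libraries (median 13.4), so that every HEK293T library lay under the RPRD1B_FL line (75.7 to 94.8 CPM), which in turn lay under the parent (194 to 237 CPM). Its ratio of CTRL over FLP was -3.88. OXCT1 followed with 11.4 to 16.7 CPM in HEK293T (median 13.4) and a ratio of -2.83, and MED10 with 36.7 to 59.0 CPM (median 49.2) and -2.04.

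GOLPH3, which kept its level between the Flp-In lines, was low in HEK293T, at 35.6 to 47.2 CPM (median 42.9) and a ratio of CTRL over FLP of -1.56. FBXO4, LIFR, CMBL, ANKH and MYO10 also had ratios of CTRL over FLP of -1.42 or lower. All 5 genes had every HEK293T library under every parent library.

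CCT5 and TRIO, which were clearly lower in the RPRD1B_FL line, were near the parent in HEK293T. CCT5 ran from 753 to 1080 CPM (median 906) with a CTRL over FLP ratio of -0.01, and TRIO from 34.6 to 65.3 CPM (median 48.0) with -0.11. No RPRD1B_FL line library of CCT5, at 624 to 673 CPM, reached the lowest HEK293T library.

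The CTRL means of NNT, RICTOR, LPCAT1, CEP72 and C5orf34 were above the FLP and RPRD1B_FL means, with ratios over FLP between 0.12 and 0.28. Only for NNT were both CTRL libraries (51.1 and 58.1 CPM) above both FLP libraries (50.9 and 49.6). Libraries of CTRL and FLP overlapped for RICTOR, LPCAT1 and CEP72. C5orf34 stood at 2.22 and 8.87 CPM in CTRL, 1 of them under every parent library (3.7 to 4.95). NNT ran from 40.6 to 71.4 CPM (median 51.7) over the HEK293T libraries, which covered the parent's range. In all, the CTRL mean was below the FLP and RPRD1B_FL means in 28 members, between them in 14 and above both in 5.

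TERT was the one member tested in HEK293T only, with 6.88 ± 2.80 CPM in CTRL (SD, n = 2), a range of 3.53 to 11.7 CPM over the 16 libraries and a median of 7.29. Its highest Flp-In library, at 2.19 CPM, lay under its lowest HEK293T library. The order of the 4 Flp-In groups for TERT does not exceed their counting floor. The 9 members that passed in neither line (IRX2, ADCY2, SEMA5A, CTNND2, FBXL7, CDH6, PDZD2, NPR3 and AMACR) reached at most 2.75 CPM in any HEK293T library and 2.67 CPM in any Flp-In library, both for AMACR.

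**Figure D4:**
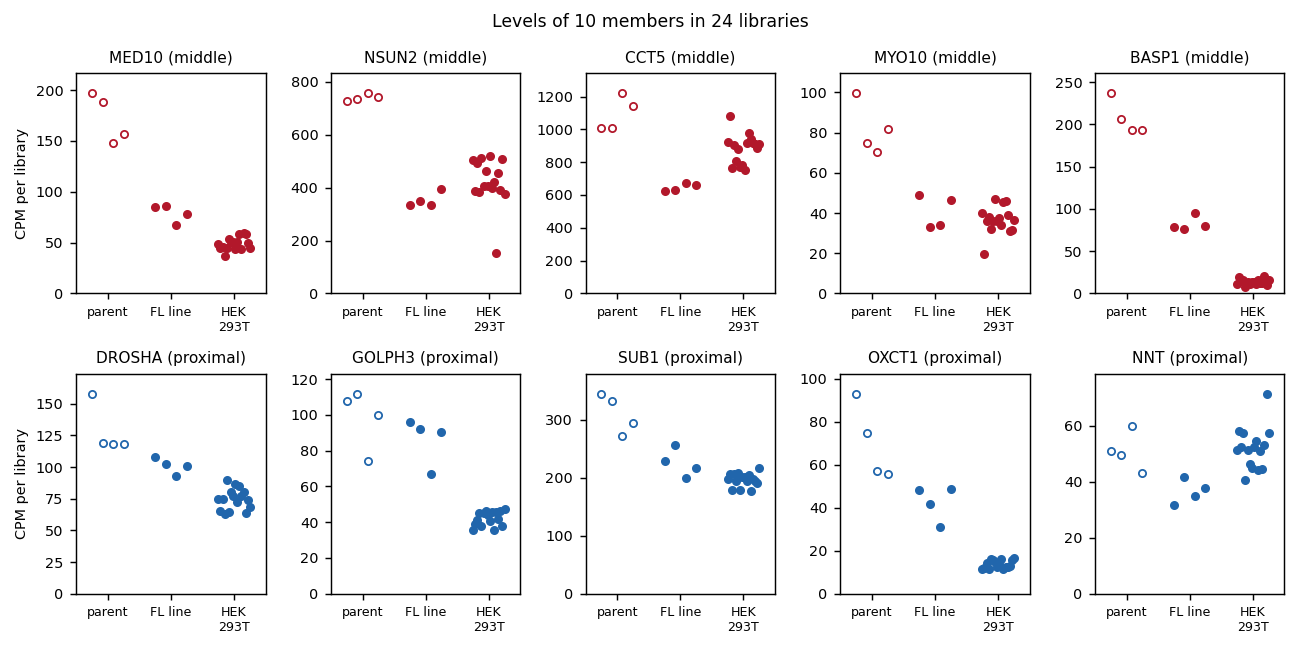
CPM per library of 10 members in the 4 parent, 4 RPRD1B_FL line (FL line) and 16 HEK293T libraries, with axes from 0 and 1 point per library. MED10, BASP1 and OXCT1 step down from parent to RPRD1B_FL line to HEK293T, CCT5 is lowest in the RPRD1B_FL line, and GOLPH3 is low only in HEK293T among the 3 sets. The low point of NSUN2 in HEK293T, at 151 CPM, is the second RPRD1A_RPRD2_KD library.

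Whether tetracycline changed the members was tested. The choice of members did not use that contrast, but it used levels of the same Flp-In libraries. Members chosen for a high FLP level can read lower with tetracycline through that choice, and this was not tested. The labels do not state that the 2 samples of a group are separate cultures, so p-values measure only the spread between these samples. In the parent line 0 of 47 members passed an adjusted p under 0.05 (edgeR's quasi-likelihood test, Benjamini-Hochberg over 11948 genes), where 0.67% of all genes did, and DESeq2 also called 0. At an unadjusted p under 0.05 there were 10 members, all lower with tetracycline, or 21.3% of members against 22.6% of all genes.

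DNAJC21 came nearest, from 99.6 and 72.2 CPM in FLP to 57.6 and 49.5 in FLP_TET. Its libraries did not overlap, and with tetracycline it stood at a log2 fold change of -0.67 (edgeR SE 0.19, adjusted p = 0.0644). ZFR (-0.59), OXCT1 (-0.57), BRIX1 (-0.56), LIFR (-0.56), LMBRD2 (-0.55), NADK2 (-0.52), PDCD6 (-0.48), WDR70 (-0.42) and MED10 (-0.34) made up the 10. All but PDCD6 and MED10 are proximal members.

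The proximal members had a median log2 fold change of -0.25 with tetracycline in the parent line, the middle members -0.01 and the distal members 0.13. The FLP libraries had correlations of -0.52 and -0.33 with transcript GC content and the FLP_TET libraries 0.30 and 0.43, and after a GC correction the medians were -0.02, 0.00 and -0.06. DNAJC21 then stood at -0.38 (adjusted p = 0.173 in edgeR). In a fit of only these 2 groups 5 members were called (DNAJC21, ZFR, BRIX1, OXCT1 and NADK2). The share of all genes called in that fit is not given here, so the 5 are not read as a result about the members. Without the second FLP library their log2 fold changes were -0.89, -0.80, -0.78, -0.73 and -0.61 in that order.

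In the RPRD1B_FL line 0 of 47 members passed with tetracycline, where 0% of all genes did. An unadjusted p under 0.05 was reached by 1 member (DNAJC21, -0.45), or 2.13% of members against 6.31% of all genes. DESeq2 likewise called none of the members there. The median over members was -0.05, with -0.19 in the proximal members and -0.05 in them after a GC correction.

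The difference of the tetracycline effects between the lines was also tested. This contrast equals the difference of the 2 line ratios, which the choice of members used. By edgeR 0 of 47 members and 0% of all genes passed, and by DESeq2 0 members did. PDCD6 alone had an unadjusted p under 0.05, where 4.13% of all genes did. Its effect in the RPRD1B_FL line was higher by 0.60 (SE 0.27, adjusted p = 0.993 in edgeR). With 2 samples per group this does not show that the ratio between the lines was equal in both states.

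Silencing of the RPRD genes was tested in HEK293T over 48 members. In RPRD1A_KD, RPRD1B_KD, RPRD2_KD and RPRD1A_RPRD2_KD over CTRL 0 members passed an adjusted p under 0.05 in edgeR, where 0.00845% of all genes did in each. In RPRD1A_RPRD1A_KD, RPRD1B_RPRD2_KD and RPRD1A_RPRD1B_RPRD2_KD 0 members passed either, where 0.0169% did. DESeq2 called 0 members in all 7.

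The median log2 fold change of the members lay between -0.06 (RPRD1A_RPRD2_KD) and 0.09 (RPRD1A_KD). The numbers at an unadjusted p under 0.05 were 0 in RPRD1A_KD, 0 in RPRD1B_KD, 1 in RPRD2_KD (CCT5, -0.37), 2 in RPRD1A_RPRD1A_KD (EXOC3, 0.68, and WDR70, -0.62), 6 in RPRD1A_RPRD2_KD, 1 in RPRD1B_RPRD2_KD (WDR70, -0.68) and 1 in RPRD1A_RPRD1B_RPRD2_KD (SLC12A7, 1.67). The shares over all genes at that threshold were 2.59%, 3.48%, 3.86%, 3.98%, 7.23%, 2.48% and 3.98% in the same order. Over the members they were 0%, 0%, 2.08%, 4.17%, 12.5%, 2.08% and 2.08%. None of these members was called.

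The 6 in RPRD1A_RPRD2_KD were EXOC3 (0.75), MTMR12 (0.66) and MYO10 (0.64) in the upward direction and SKP2 (-0.58), WDR70 (-0.58) and TTC33 (-0.97) in the downward direction. The second library of that group was the one that stood apart. It held NSUN2 at 151 CPM against 421 in the first, BRIX1 at 37.5 against 84.8 and SKP2 at 44.2 against 83.2. A fit without the first library rests on this second library alone for that group, so its calls are not read as a result about the members.

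**Figure D5:**
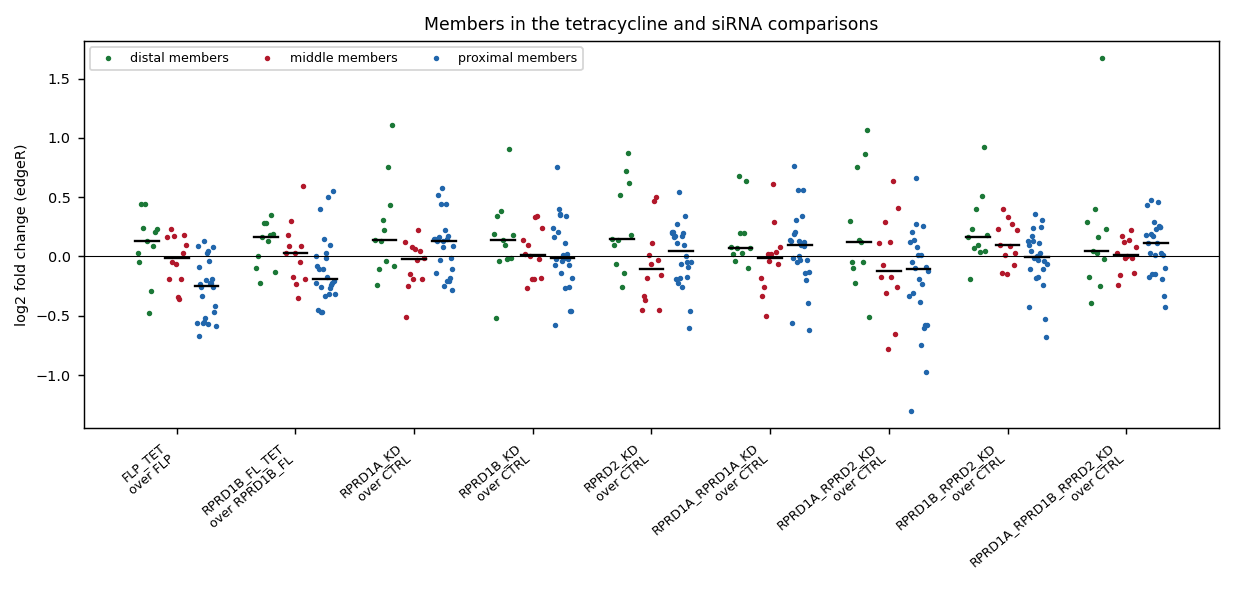
Log2 fold changes (edgeR) of the distal, middle and proximal members tested in the Flp-In lines, in the tetracycline comparison of each Flp-In line and the 7 siRNA comparisons in HEK293T. Each point is a member and black lines are medians. No member passed an adjusted p under 0.05 in any of the 9 comparisons, and the lowest median is that of the proximal members in FLP_TET over FLP, -0.25.

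For members that belong to complexes or work with named partners, partner genes off the short arm were examined in the line comparison. The lists were drawn up by complex, with earlier results known, and 4 of the partners tested (MED7, SKP1, RAD17 and NHP2) lie on the long arm of chromosome 5. Of 85 partners of 15 lists, 82 were tested. CCT8, a chaperonin subunit on chromosome 21, passed in both states, and no other partner did in either. That is 1 of 82, where 1.16% of all genes tested were called without and 1.05% with tetracycline, so the share is near the background. The median over the 82 was 0.07 without and 0.11 with tetracycline, with 30 and 28 below 0.

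CCT8 measured 808 ± 47 CPM (SD, n = 2) in FLP and 431 ± 39 in RPRD1B_FL, then 621 ± 59 in FLP_TET and 392 ± 97 in RPRD1B_FL_TET. Without tetracycline CCT8 changed by -0.91 on the log2 scale (edgeR SE 0.16, adjusted p = 0.00379), and with it by -0.67 (edgeR SE 0.16, adjusted p = 0.0461). CCT5, the member of this complex, was lower in the same line, and so were the 105 tested genes of chromosome 21, with medians of -0.74 and -0.70 and 102 of them below 0 in the mean of both states. The call was lost without the first FLP or the first RPRD1B_FL library (0 partners called), and with tetracycline without either FLP_TET library, without the first RPRD1B_FL_TET library or with total counts as the only scaling (0 called).

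The other 6 subunits of the chaperonin listed, none of them on chromosome 5 or 21, did not pass. TCP1 came nearest, at 471 ± 16 CPM in FLP and 680 ± 6.5 in RPRD1B_FL (log2 fold change 0.53, adjusted p = 0.0579 in edgeR), and at 0.50 (adjusted p = 0.0872) with tetracycline. CCT4 had 0.48 and 0.37, CCT7 0.47 and 0.34, CCT2 0.18 and 0.15, CCT6A 0.05 and 0.26, and CCT3 -0.03 and -0.05. With a GC correction TCP1, CCT4 and CCT7 were called higher without tetracycline and TCP1 with it, and DESeq2 called TCP1 in both states and CCT4 without tetracycline.

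The partners of the other members were not called in either state. The 14 Mediator subunits tested beside MED10 had medians of 0.14 and 0.15, and the 4 inner-ring nucleoporins beside NUP155 had 0.18 and 0.15. DGCR8, the partner of DROSHA, had 0.23 and 0.17. The 9 genes of cohesin and its loader beside NIPBL had -0.16 and 0.03, with SMC3 (-0.70) and SMC1A (-0.53) the lower ones without tetracycline, and SMC1A was called with a GC correction. The 7 other exocyst subunits beside EXOC3 had 0.11 and 0.17, and the 5 partners of SDHA 0.36 and 0.09.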

How the data were processed

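Per the labels' protocols, polyadenylated RNA of 24 cell-line samples was sequenced with QuantSeq 3′ REV libraries. The authors deposited whole-number counts per gene name. FastQC, STAR, HTSeq, DESeq2 and GRCh38 are named in the submitters' processing notes, while the annotation and the counting strand are not given in the sources used here. The 5 rows that name no gene were left out. They held 30.4% to 48.5% of each table's total.

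Counts were fitted in R 4.3.3 with edgeR 4.0.16 (filterByExpr with a minimum count of 10 and a total of 15, TMM over all 24 libraries, glmQLFit, glmQLFTest), 1 fit per cell line, Benjamini-Hochberg threshold 0.05. CPM uses TMM-scaled totals of counts in genes. DESeq2 1.42.0 was an alternative. Positions are GENCODE release 29 on GRCh38, where 54892 names matched 1 gene. The short arm was taken as the genes before the widest stretch of chromosome 5 without a gene (4.5 Mb). Log2 ratios are of group means of CPM. Named in full were the lowest members (BASP1, MED10, CMBL and SRD5A1 among those of 10 CPM or more), those that kept their level (mean log2 ratio above -0.20), the first and last expressed, and the members with partner lists. Called partner genes are named, and other partners were named after their values were seen. The members and lists were chosen with earlier results of these data known. The fit was tested on simulated data. Alternatives were other scalings, filters, tools, fits and left-out libraries. A GC correction (lowess, span 0.3) and the omission of the outlying library were added after seeing the data.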

Additional observations from a re-analysis of the deposited data

How the results depend on the processing

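With RLE size factors, total counts, no filter or a mean of 10 CPM or more, the 4 median log2 ratios over all members moved by less than the spread between library pairs. So did the line ratios with TMM within each cell line or the GC correction, and the CTRL ratios with log2(CPM + 1) group means. With 1 library left out at a time, the median ran from -0.66 to -0.46 for RPRD1B_FL over FLP, -0.55 to -0.39 for RPRD1B_FL_TET over FLP_TET, -0.76 to -0.67 for CTRL over FLP and -0.18 to 0.01 for CTRL over RPRD1B_FL. The position groups ran from -0.47 to -0.28 (distal), -1.08 to -0.96 (middle) and -0.51 to -0.39 (proximal), and the middle members of 10 CPM or more gave -1.0 against -1.04.

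For FLP_TET over FLP, 0 members became 2 with no filter, 5 in a fit of only these groups, 1 (PDCD6) with the replicate block and GC correction, and 0 to 3 with a library left out. RPRD1A_RPRD2_KD gave 0 to 3 with a library left out. RPRD2_KD gave 1 (CCT5) with the replicate block and the outlying library omitted. Counts of members stayed at 0 in the other tested comparisons under each alternative run. A fit of only the groups compared was not run for the difference of the tetracycline effects, which already uses all 4 Flp-In groups. Partner genes called in RPRD1B_FL over FLP went from 1 to 5 with no filter, 5 with the GC correction, 5 with the replicate block and GC correction, 3 with DESeq2, and 0 to 4 with a library left out. In RPRD1B_FL_TET over FLP_TET 1 became 0 with total counts only, 2 with the GC correction, 2 with the replicate block and GC correction, 2 with DESeq2, and 0 to 2 with a library left out. The shares of all genes called under these alternatives are not given here. The counts are therefore not read as changes particular to the members or partners. The cause of these changes was not tested. Leaving an arm with 1 library assumes that it varies like the other groups.

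Deviations of same-numbered libraries correlated at a mean r of 0.325 (-0.012 to 0.514) over 28 pairs of HEK293T groups and -0.016 (-0.345 to 0.453) over 6 pairs of Flp-In groups, across 8889 genes. In HEK293T 26 of 28 pairs exceeded 0.1, and reads outside genes took 34.3% to 36.7% in the number 1 and 27.4% to 29.8% in the number 2 libraries, which hints at a shared set that the labels do not state. RPRD1B_FL and RPRD1B_FL_TET correlated at 0.453. The replicate block alone left 0 members called in each tested comparison and 1 partner gene in each state.

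At these depths 3 counts make 0.85 to 1.65 CPM, so the 9 members not tested and TERT in the Flp-In lines have no usable ratio. No counting intervals are given, and the counts carry no molecular identifiers. With 2 libraries per group, overlapping genes and an unstated strand, single ratios of members under 10 CPM are weak.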
